A study of Mus musculus with 18 samples.

Results

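The hearts of batch LC labelled Lmna shRNA were set against the control hearts of the same batch, across all genes of the deposited count table. Members were chosen by their labels alone: 3 libraries titled L881, whose treatment is given as Lmna shRNA, and 3 titled Control, which make 6 of the 18 libraries of the series. Both groups were heart apex of mice labelled WT in genotype. The shRNA-labelled hearts are described by their labels as given Lmna shRNA, with no added lamin named. The controls were labelled only as control, and the sources used here do not say what they received. No promoter, cell type, age or sex was stated, and nothing says whether replicates came from separate litters, so the p-values measure only the spread between these libraries. The study as a whole made a model of dilated cardiomyopathy by knocking down Lmna and then raised lamin A or lamin C in it with an adeno-associated virus. The same pair of groups was made again in batch LA, with 3 other shRNA-labelled and 3 other control libraries.

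Lmna encodes lamins A and C, filament proteins that line the inner face of the nuclear envelope and anchor it to chromatin and, through bridging proteins, to the cytoskeleton. Inherited changes of the gene are a known cause of dilated cardiomyopathy with conduction disease. An adult ventricle under chronic load is known to return in part to the gene set of the fetal heart, to turn from fatty acids towards glucose as fuel, and to fill with matrix made by activated fibroblasts. The apex holds cardiomyocytes, fibroblasts, endothelial cells, macrophages and other cells together. In such bulk tissue fewer cells of a type and less RNA per cell cannot be told apart.

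Lmna itself was not lower under the label. It held 137, 134 and 115 CPM in the shRNA-labelled hearts, against 122, 128 and 119.7 CPM in the controls. The 2 groups overlapped, and the difference of 0.06 ± 0.08 (log2 fold change ± standard error, positive where higher in the shRNA-labelled hearts) was not called (edgeR adjusted p = 0.578). With libraries scaled by their totals alone the same gene came out higher by 0.48 and was called. Counts over the whole gene do not tell lamin A and lamin C transcripts apart, and the protein was not measured here. Every direction given for the shRNA-labelled hearts therefore rests on their labels. CPM, the usual unit of counts relative to library size (here the TMM-scaled one), gives levels throughout, every error beside a log2 fold change is its standard error, and each group has 3 libraries.

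The 6 libraries held between 31898146 and 41259968 counts, so 3 counts were worth between 0.0622 and 0.107 CPM. Mitochondrially encoded genes took 13% to 15.6% of the counts in the shRNA-labelled hearts and 25.2% to 25.5% in the controls. The 10 most abundant genes together took 16.9% to 19.4% in the shRNA-labelled hearts and 29.9% to 30.5% in the controls. More genes had at least 1 count in the shRNA-labelled hearts (23646 to 24728) than in the controls (21146 to 21326). Of the genes tested, 13939 to 13982 stood at 1 CPM or more in the shRNA-labelled hearts and 13436 to 13563 in the controls. The TMM-scaled library sizes were 37519252 to 48237639 in the shRNA-labelled hearts and 27950782 to 30619898 in the controls, and their part in these numbers was not tested. Markers of cell types moved with the groups. All 10 cardiomyocyte markers fell, with a summed level of 34500 to 39300 CPM in the shRNA-labelled hearts and 78300 to 81700 CPM in the controls, and 6 stayed lower with libraries scaled by totals. Fibroblast markers rose in 8 of 10 cases (5400 to 5540 CPM summed, against 2220 to 2650 CPM in the controls) and macrophage markers in 11 of 12 (1360 to 1520 CPM, against 367 to 459 CPM in the controls). T and natural killer cell markers rose in 8 of 11 and stayed low, at 9.47 to 11 CPM summed in the shRNA-labelled hearts and 2.35 to 3.9 CPM in the controls. Of 10 endothelial markers 9 fell and 1 rose (787 to 933 CPM, against 1240 to 1450 CPM in the controls), and with totals 3 fell and 1 rose. Of 5 atrial markers tested 4 rose and 1 fell, with Nppa holding nearly all of the sum (10600 to 15300 CPM, against 155 to 277 CPM in the controls), while the atrial genes Sln and Bmp10 were at 0 in all 3 controls. The neutrophil gene Ly6g and the skeletal muscle gene Myh4 were at 0 in the controls too. All 5 erythroid markers fell, and none was called with library totals. The part of these cell types in the results that follow was not tested.

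Most genes differed between the groups. Of 17876 genes tested, 62.9% were called at an edgeR adjusted p under 0.05, with 33.3% of genes higher (5948) and 29.6% lower (5299) in the shRNA-labelled hearts. The 2 groups did not overlap at all in 64.9% of genes. Rises reached further than falls: 2894 genes rose and 1479 fell at least 2-fold, 1311 rose and 290 fell at least 4-fold, and 301 rose and 23 fell at least 16-fold. These shares are the background against which the counts of each gene group have to be read. Of all genes tested, called or not, 2421 had a 95% interval inside a 1.25-fold change in either direction. Called genes made up 68% of 14618 protein-coding genes, 46% of 1782 long noncoding genes and 32.6% of 996 pseudogenes. The balance of rises and falls depended on scaling, since 52.9% of called genes were higher with TMM factors and 81.2% with library totals alone (10427 higher, 2416 lower). Totals moved the median change of all genes to 0.47, against 0.05 with TMM factors. A small fall is therefore a fall relative to other genes of the same heart, and counts with library totals are given beside many of the lists.

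**Figure D1:**
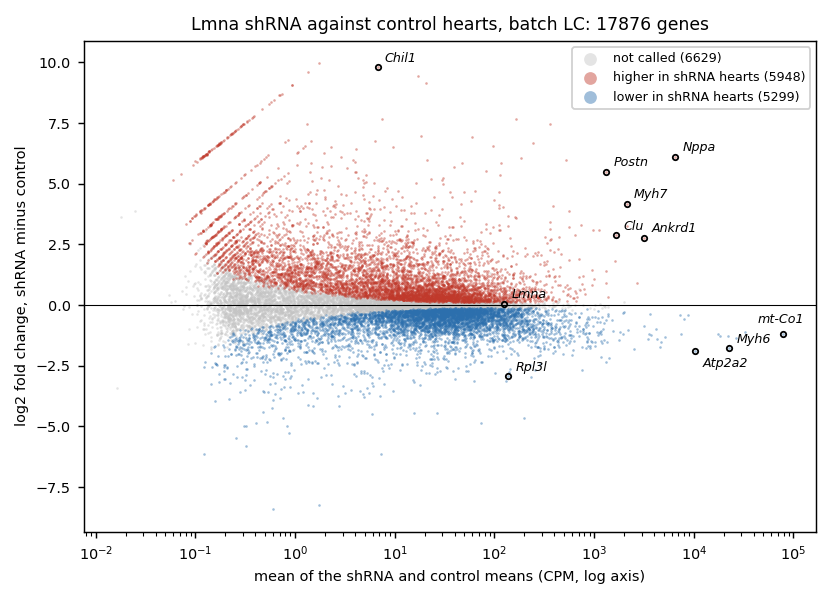
Log2 fold change of each tested gene, shRNA-labelled minus control hearts of batch LC, against its mean level in CPM on a log axis. Red points are called higher, blue points lower and grey points neither (edgeR adjusted p under 0.05); Nppa and Postn stand out among abundant genes that rose, Myh6 and mt-Co1 among those that fell, and Lmna lies at 0.06.

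The make-up of the transcript pool changed most through a small number of muscle, mitochondrial and matrix genes. Nppa, the precursor of atrial natriuretic peptide, held 13100, 10530 and 15190 CPM in the shRNA-labelled hearts, against 136, 165 and 257 CPM in the controls. It rose by 6.12 ± 0.42 (edgeR adjusted p = 1.72e-10) and was 1 of the 10 most abundant genes of the shRNA-labelled hearts but not of the controls. Ankrd1, a stretch-responsive protein of the sarcomere, followed with 5324, 5165 and 6206 CPM in the shRNA-labelled hearts, against 643, 642 and 1164 CPM in the controls (2.77 ± 0.20, edgeR adjusted p = 4.77e-10). Neither gene had an shRNA-labelled heart within the range of the controls, and the third control was the highest of its group in both. The other genes among the 10 largest gains were Myh7, the slow beta myosin heavy chain, the complement regulator Clu (2.88 ± 0.19), the intermediate filament gene Des (0.91 ± 0.09) and the matrix genes Col3a1, Col1a2, Postn, Sparc and Bgn. Sparc, a calcium-binding matrix glycoprotein, rose by 1.81 ± 0.10, and Bgn, a small proteoglycan, by 3.09 ± 0.13.

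The largest losses in CPM fell on mitochondrially encoded genes and on genes of the cardiomyocyte. Myh6, the fast alpha myosin heavy chain of the adult mouse ventricle, held 9585, 13410 and 7627 CPM in the shRNA-labelled hearts, against 36000, 34460 and 34900 CPM in the controls (-1.78 ± 0.13, edgeR adjusted p = 2.74e-10). Atp2a2, the calcium pump of the sarcoplasmic reticulum, held 4306, 5347 and 3590 CPM in the shRNA-labelled hearts, against 17060, 16740 and 15330 CPM in the controls (-1.89 ± 0.10, edgeR adjusted p = 6.73e-12). In both genes every shRNA-labelled heart was below every control, with the second shRNA-labelled heart the least reduced. Pln, the inhibitor of that pump, fell by 1.71 (SE 0.07) and Mb, the oxygen-binding myoglobin, by 1.20 (SE 0.07). Of the 10 genes with the largest losses, 6 were mitochondrially encoded (mt-Co1, mt-Cytb, mt-Nd5, mt-Nd1, mt-Nd2 and mt-Nd4), with changes between -1.12 and -1.36. Nuclear copies of such genes can share their reads, so single values among them are uncertain. The cardiac actin Actc1 held 7402, 7612 and 7429 CPM in the shRNA-labelled hearts, against 10040, 9811 and 10230 CPM in the controls. Its change of -0.42 ± 0.05 was a fall relative to other genes, for with library totals it was 0.0022 and not called.

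**Figure D2:**
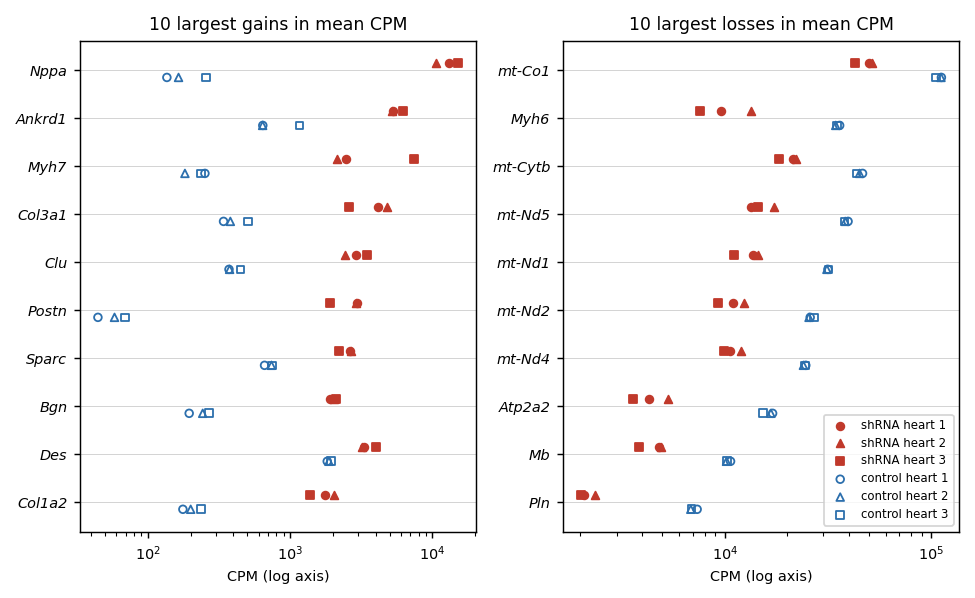
CPM of the 10 genes with the largest gain (left) and the 10 with the largest loss (right) in mean CPM, on log axes, 1 point per heart, filled red for shRNA-labelled and open blue for control hearts. The groups do not overlap in any of the 20 genes; Nppa held 10530 to 15190 CPM in the shRNA-labelled hearts against 136 to 257 CPM in the controls, and the third shRNA-labelled heart has the highest Myh7.

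Paired genes that encode an adult or muscle form and a fetal or general form of the same protein all shifted towards the second. For 20 such pairs the log2 ratio of FPKM (fragments per kilobase of gene, scaled for depth, with 0.1 added), which allows 2 genes to be compared, was lower in the shRNA-labelled hearts in every pair. No pair had overlapping groups, the median shift was -1.84, and each exact permutation test of 3 against 3 libraries gave p = 0.1, the smallest value such a test can reach (0.1 after adjustment over the pairs as well). Many of the 40 genes are abundant in cardiomyocytes alone, whose markers fell as a whole, and the part of that in these ratios was not tested. Pairs were listed with earlier results of these data known, so their common direction is a description.

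Among contractile proteins, the log2 ratio of Myh6 to Myh7 was 2.32, 3.01 and 0.39 in the shRNA-labelled hearts, against 7.51, 7.91 and 7.56 in the controls. In the third shRNA-labelled heart the 2 myosins stood at nearly the same level, and in every control the alpha form exceeded the beta form by at least 7.51 log2 units. Both members moved: Myh7 held 2465, 2133 and 7463 CPM in the shRNA-labelled hearts, against 252, 182 and 236 CPM in the controls (4.17 ± 0.36, edgeR adjusted p = 5.91e-09). Cardiac over slow skeletal troponin I (Tnni3 over Tnni1) shifted by -4.11, ventricular over atrial regulatory light chain (Myl2 over Myl7) by -3.46 and ventricular over atrial essential light chain (Myl3 over Myl4) by -2.89. Tnni1 and Myl7 remained scarce in the shRNA-labelled hearts, at means of 0.56 and 1.07 FPKM, against 0.034 and 0.17 FPKM in the controls. Acta1, the skeletal actin, had overlapping groups of its own (452, 694 and 326 CPM in the shRNA-labelled hearts, against 114, 197 and 341 CPM in the controls), although the ratio of Actc1 to Acta1 did not overlap. Reads of near-identical actins and of the 2 myosins may be divided between the genes of a pair in ways the deposited counts do not show, and Myh7 overlaps the antisense gene Mhrt.

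The ribosome, the microtubule and fuel use showed the same turn. Rpl3l, the muscle-restricted form of ribosomal protein L3, held 32.5, 41.3 and 20.9 CPM in the shRNA-labelled hearts, against 271, 234 and 223 CPM in the controls. Its general counterpart Rpl3 held 324, 283 and 306 CPM in the shRNA-labelled hearts, against 131, 135 and 146 CPM in the controls. The log2 ratio of the 2 was -2.359, -1.821 and -2.916 in the shRNA-labelled hearts, against 1.996, 1.744 and 1.555 in the controls, so the order of the 2 forms turned over. Such a reversal of order was also found for Tuba8, an alpha tubulin of muscle and testis, and Tuba1a, the alpha tubulin of embryonic and nerve tissue (-2.10, -1.74 and -2.44 in the shRNA-labelled hearts, against 1.39, 1.11 and 1.29 in the controls). Slc2a4, the insulin-responsive glucose transporter, over the basal transporter Slc2a1 shifted by -2.73, and Ckm over Ckb, the muscle and brain creatine kinases, by -2.89. Muscle over general forms of enolase (Eno3 over Eno1), phosphoglycerate mutase (Pgam2 over Pgam1) and hexokinase (Hk2 over Hk1) shifted by -2.18, -1.84 and -1.58. Heart over muscle lactate dehydrogenase (Ldhb over Ldha) shifted by -1.84, and the heart forms of cytochrome c oxidase subunits 6A, 7A and 8 by -1.40, -1.04 and -1.22. Among the smaller shifts were those of the fatty acid binding proteins (Fabp3 over Fabp5, -0.84) and glycogen phosphorylase (Pygm over Pygb, -1.02). Carnitine palmitoyltransferase I (Cpt1b over Cpt1a, -1.79) is uncertain, because Cpt1b overlaps a longer gene on its own strand (Gm44502).

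**Figure D3:**
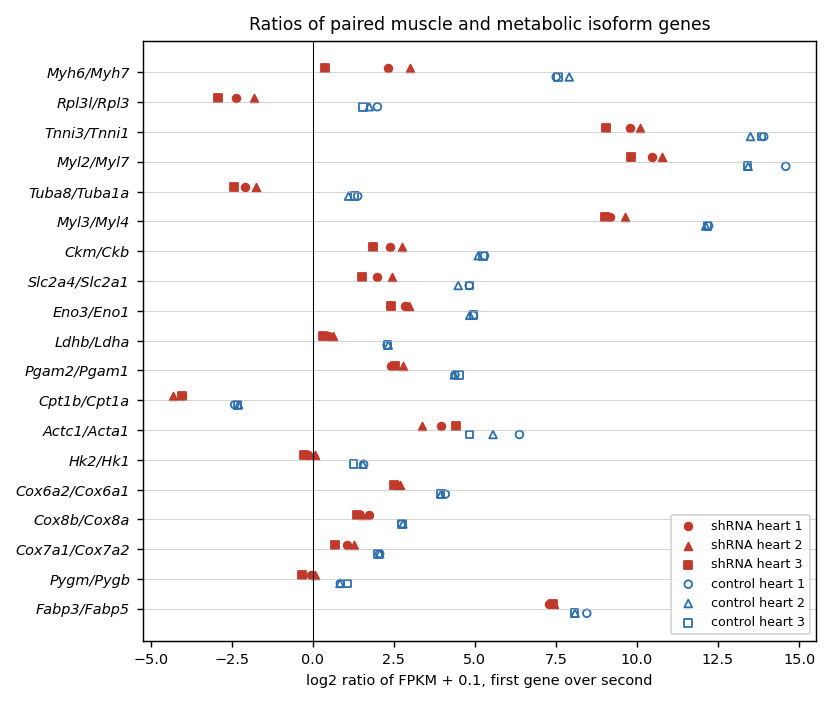
Log2 ratio of FPKM + 0.1 of the first over the second gene of 19 of the 20 pairs, 1 point per heart, filled red for shRNA-labelled and open blue for control hearts, sorted by the size of the shift. All 19 lie further left in the shRNA-labelled hearts with no overlap; the third shRNA-labelled heart lies at 0.39 for Myh6 over Myh7.

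Hormones of the stretched heart rose while most receptors that answer them did not. Besides Nppa, Nppb, which encodes B-type natriuretic peptide, held 705, 522 and 706 CPM in the shRNA-labelled hearts, against 79.8, 108 and 235 CPM in the controls (2.19 ± 0.28, edgeR adjusted p = 1.19e-06). The groups did not overlap, though the third control stood well above the other 2. Corin, the protease that cuts the atrial prohormone into its active form, fell (-1.33 ± 0.10, edgeR adjusted p = 1.38e-09). Of 4 receptors and degrading enzymes 3 fell, and 1 fell and 1 rose with library totals, the deepest being Mme (neprilysin), the peptidase that degrades the peptides, with 1.66, 2.27 and 2.09 CPM in the shRNA-labelled hearts, against 12.1, 13.4 and 13.8 CPM in the controls (-2.72 ± 0.15, edgeR adjusted p = 1.51e-11). Npr1, the receptor of both peptides, fell relative to other genes (-0.46 ± 0.07) but was not called with library totals. In the renin-angiotensin system Ace, which makes angiotensin II, held 378, 352 and 455 CPM in the shRNA-labelled hearts, against 94.4, 104 and 95.9 CPM in the controls (2.01 ± 0.10, edgeR adjusted p = 2.33e-12). Every shRNA-labelled heart exceeded the controls more than 3-fold. The receptors moved the other way: Agtr1a, the type 1 angiotensin II receptor, fell by 1.39 (SE 0.12) and Nr3c2, the mineralocorticoid receptor, by 1.05 (SE 0.15). Mas1, the receptor of angiotensin 1-7, held 0.0829, 0.0800 and 0 CPM in the shRNA-labelled hearts, against 2.32, 1.02 and 1.07 CPM in the controls (-4.64 ± 0.54, edgeR adjusted p = 3.39e-07). Atp6ap2, the prorenin receptor, rose (1.08 ± 0.07).

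Genes of adrenergic signalling fell more often than they rose, and the balance depended on scaling. Of 20 genes 12 fell and 4 rose (median -0.60), and with library totals 10 fell and 8 rose. Of 14 effectors 8 fell and 3 rose, and with totals 7 fell and 7 rose. Among 6 receptors 4 fell and 1 rose, and that rise of 3.94 was the largest change on the list. Adra1a, the alpha 1A receptor, held 1.87, 2.90 and 1.63 CPM in the shRNA-labelled hearts, against 13.4, 14.5 and 10.1 CPM in the controls (-2.58 ± 0.20, edgeR adjusted p = 1.59e-09). Adcy6, the main adenylyl cyclase of the ventricle, fell by 1.05 (SE 0.09), Prkaca, the catalytic subunit of protein kinase A, by 0.79 (SE 0.05) and its anchor Akap6 by 0.61 (SE 0.06). The genes that rose include brakes on the pathway. Grk5, a kinase that silences activated receptors, held 67.6, 61.1 and 76.3 CPM in the shRNA-labelled hearts, against 25.7, 25.5 and 27.8 CPM in the controls (1.38 ± 0.09, edgeR adjusted p = 8.31e-11), and Prkar1a, a regulatory subunit that holds protein kinase A inactive, and the inhibitory G protein Gnai2 rose by 0.64 ± 0.08 and 0.41 ± 0.05.

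Transcription factors of the cardiomyocyte fell in 17 of 23 cases and rose in 2 (median -0.34), but the count was 7 lower and 7 higher with library totals, so small falls among them are relative to other genes. Hopx, a homeodomain protein that restrains growth of cardiomyocytes, held 39.7, 41.9 and 37.9 CPM in the shRNA-labelled hearts, against 253, 263 and 223 CPM in the controls (-2.63 ± 0.11, edgeR adjusted p = 3.85e-13). It was far below the controls in each shRNA-labelled heart, and stayed called with library totals. Tbx5, which is needed for chamber and conduction genes, fell by 1.05 (SE 0.10), Irx4, a ventricular factor, by 0.72 (SE 0.07) and Mef2d by 0.65 (SE 0.07). Tbx20 rose, with 199.6, 210.2 and 232 CPM in the shRNA-labelled hearts, against 113, 107 and 136 CPM in the controls (0.85 ± 0.09, edgeR adjusted p = 6.25e-08).

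Regulators of oxidative metabolism fell in 16 of 18 cases with none higher (median -0.86), and with library totals 14 fell and 1 rose. Perm1, a muscle coactivator of mitochondrial genes, held 109.9, 136 and 120.0 CPM in the shRNA-labelled hearts, against 406, 401 and 357 CPM in the controls (-1.67 ± 0.08, edgeR adjusted p = 1.38e-12). Rxrg, a partner of nuclear receptors, fell by 1.96 (SE 0.14), and Esrra, the estrogen-related receptor alpha that drives respiratory genes, by 0.89 (SE 0.06). Tfb2m, a factor for transcription of mitochondrial DNA, fell by 0.83 (SE 0.06).

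The enzymes downstream fell with them. Of 28 genes for the entry of pyruvate and the citric acid cycle 27 fell and none rose (median -1.25), and 25 fell with library totals. Cs, citrate synthase, held 661, 753 and 607 CPM in the shRNA-labelled hearts, against 1882, 1795 and 1845 CPM in the controls (-1.45 ± 0.07, edgeR adjusted p = 1.13e-12). Sdha, the flavoprotein of succinate dehydrogenase, fell by 1.49 (SE 0.06) and Pdha1, the E1 subunit of pyruvate dehydrogenase, by 1.10 (SE 0.05). The third shRNA-labelled heart was the lowest of its group in 22 of these 28 genes. Branched-chain amino acid breakdown fell further, in 18 of 19 genes (median -1.41). Ppm1k, the phosphatase that switches the branched-chain dehydrogenase on, held 23.1, 27.1 and 23.4 CPM in the shRNA-labelled hearts, against 129, 125 and 116 CPM in the controls (-2.33 ± 0.09, edgeR adjusted p = 3.85e-13). Ivd and Aldh6a1, later steps of leucine and valine breakdown, fell by 2.07 (SE 0.08) and 2.04 (SE 0.06). The exception was Bcat1, the cytosolic aminotransferase, which held 6.45, 5.62 and 4.81 CPM in the shRNA-labelled hearts, against 1.34, 2.63 and 1.04 CPM in the controls (1.76 ± 0.23, edgeR adjusted p = 2.13e-06), while the mitochondrial enzyme Bcat2 fell by 1.00.

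Use of ketone bodies fell in 6 of 7 genes, and in 4 with library totals. Oxct1, the enzyme that activates ketone bodies, fell by 1.23 (SE 0.07) and Acat1, which splits the product, by 1.73 (SE 0.07). Slc16a3, a lactate exporter of glycolytic cells, rose instead, with 17.3, 13.1 and 19.5 CPM in the shRNA-labelled hearts, against 1.24, 1.47 and 1.86 CPM in the controls (3.45 ± 0.18, edgeR adjusted p = 7e-12). The groups lay well apart, and Slc16a1, the transporter for uptake, fell by 0.69 (SE 0.06). Energy transfer divided in the same manner between forms: the mitochondrial and cytosolic muscle creatine kinases fell (Ckmt2 by 1.53, SE 0.08, and Ckm by 2.13, SE 0.16), and the ubiquitous mitochondrial form Ckmt1 held 3.94, 2.88 and 4.66 CPM in the shRNA-labelled hearts, against 0, 0 and 0.143 CPM in the controls (6.27 ± 0.54, edgeR adjusted p = 4.71e-09). Gatm, the first enzyme of creatine synthesis, rose by 1.68 ± 0.14, and adenylate kinase Ak1 fell by 1.19 (SE 0.06).

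NAD metabolism showed 1 steep rise among falls. Nmrk2, the muscle nicotinamide riboside kinase, held 191, 141 and 154 CPM in the shRNA-labelled hearts, against 1.70, 1.82 and 7.26 CPM in the controls (5.51 ± 0.32, edgeR adjusted p = 2.11e-11). The third control stood above the other 2, yet far below the lowest shRNA-labelled heart. Of the 19 genes 7 rose and 11 fell (median -0.49, with 8 higher and 7 lower by library totals), and among the falls were Nadk2, the mitochondrial NAD kinase (by 1.62, SE 0.08), Nmnat3, a mitochondrial NAD synthase (by 1.40, SE 0.09), and the mitochondrial deacylase Sirt5 (by 1.18, SE 0.09). Inside the mitochondrion, import, chaperone, protease and dynamics genes fell in 20 of 21 cases (median -0.82), and in 13 with library totals, where 4 rose. Mtfp1, which promotes fission, held 25.4, 31.00 and 17.2 CPM in the shRNA-labelled hearts, against 133, 122 and 121 CPM in the controls (-2.35 ± 0.13, edgeR adjusted p = 1.35e-11), and the chaperones Hspd1 and Hspa9 fell by 1.33 (SE 0.07) and 1.00 (SE 0.05).

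Protein synthesis divided by compartment. Of 16 mitochondrial aminoacyl-tRNA synthetases, the enzymes that load amino acids on tRNA, 15 fell and none rose (median -0.77), the deepest being Fars2 (by 1.10, SE 0.07) and Cars2 (by 1.03, SE 0.06). Of 20 cytosolic ones 8 rose and 9 fell (median -0.05), with Nars (0.48 ± 0.06) and Rars (0.45 ± 0.06) leading the rises. With library totals 16 of the cytosolic enzymes rose and none fell, and 13 of the mitochondrial ones fell. Cytosolic ribosomal proteins rose in 36 of 42 cases at a small median of 0.29, and the single fall was Rpl3l. Rpl10, of the large subunit, rose by 0.67 ± 0.06. Proteasome subunits did not move as a group (8 higher and 6 lower of 26, median -0.02), although with totals 23 were higher and 1 lower. The inducible subunits Psmb8 and Psmb9, which replace standard ones in inflamed tissue, rose by 0.95 ± 0.14 and 0.73 ± 0.11.

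Matrix genes rose in most lists, and fibroblast markers rose beside them as given above, by a median of 1.36. Of 30 collagen genes 27 rose and none fell (median 1.72). Among fibrillar collagens Col3a1 held 4145, 4813 and 2599 CPM in the shRNA-labelled hearts, against 341, 380.5 and 505 CPM in the controls (3.24 ± 0.20, edgeR adjusted p = 4.9e-11). The third shRNA-labelled heart was the lowest of its group in this gene, as it was in 21 of the 30 collagens, and it still lay far above the highest control. Col1a2 and Col5a2 rose by 3.08 ± 0.16 and 3.43 ± 0.17. Col11a1, a fibrillar collagen of cartilage, had 298 counts in the shRNA-labelled hearts and 2 in the controls, a ratio of 104 (28.5 to 861), with a 95% counting interval in brackets. Col8a1, a short-chain network collagen, rose by 4.07 ± 0.18, and the fibril-associated Col14a1 and Col16a1 by 3.08 ± 0.15 and 3.03 ± 0.12. Basement membrane collagens rose less: Col4a1 and Col4a2 gained 0.91 and 0.83.

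Enzymes that fold and crosslink collagen rose in 18 of 23 cases. Lox, the lysyl oxidase that starts crosslinking, held 236, 212 and 217 CPM in the shRNA-labelled hearts, against 5.09, 3.75 and 7.33 CPM in the controls (5.36 ± 0.25, edgeR adjusted p = 1.3e-12). Loxl3 and the procollagen processing enhancer Pcolce rose by 3.48 ± 0.16 and 2.03 ± 0.09. Not every step rose, for Plod1, a lysyl hydroxylase, moved by -0.15 ± 0.05 and with library totals by 0.27, so its direction depends on scaling. Proteases and their inhibitors rose in 18 of 26 cases and fell in 3 (median 1.51). Timp1, the inducible inhibitor of matrix metalloproteases, held 118, 84.2 and 73.9 CPM in the shRNA-labelled hearts, against 1.44, 1.47 and 1.86 CPM in the controls (5.86 ± 0.25, edgeR adjusted p = 5.17e-13). Timp4, the inhibitor typical of healthy heart, moved the other way with 8.91, 9.62 and 9.24 CPM in the shRNA-labelled hearts, against 39.2, 47.98 and 30.1 CPM in the controls (-2.08 ± 0.27, edgeR adjusted p = 1.72e-06). Neither gene had overlapping groups. Serpine2, an inhibitor of thrombin and plasminogen activators, rose by 2.24 ± 0.08, and Serpinb1a, an inhibitor of neutrophil proteases, by 4.65 ± 0.18. Mmp15, a membrane-bound metalloprotease, fell by 1.75 (SE 0.08).

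Genes that mark the activated state of fibroblasts stood among the largest rises of all. All 16 markers on that list rose, and 14 of 17 transcription factors did (33 genes, median 1.98). Thbs4, a thrombospondin of injured muscle, held 787, 829 and 544 CPM in the shRNA-labelled hearts, against 3.62, 3.68 and 4.94 CPM in the controls (7.46 ± 0.38, edgeR adjusted p = 4.49e-12). Cilp, a cartilage matrix protein, held 1015, 1075 and 966 CPM in the shRNA-labelled hearts, against 12.2, 11.6 and 24.5 CPM in the controls (5.98 ± 0.35, edgeR adjusted p = 2.13e-11). In both genes every shRNA-labelled heart lay far above every control, with the third shRNA-labelled heart the lowest of its group. Ltbp2, which binds fibrillin fibres, rose by 6.07 ± 0.32, and Ddah1, which clears an inhibitor of nitric oxide synthesis, by 3.22 ± 0.15. Prrx1 and Tead1, 2 factors on the list called lower (-0.16 ± 0.06 and -0.27 ± 0.06), came out higher with library totals (0.26 and 0.15). Resident fibroblast markers were already expressed in the controls, where all 10 stood at 1 CPM or more.

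Among adhesion proteins Postn, the matricellular protein periostin, held 2938, 2892 and 1920 CPM in the shRNA-labelled hearts, against 44.7, 58.4 and 68.9 CPM in the controls (5.49 ± 0.24, edgeR adjusted p = 9.37e-13). Fn1, fibronectin, held 682, 786 and 497 CPM in the shRNA-labelled hearts, against 65.2, 73.1 and 85.1 CPM in the controls (3.14 ± 0.17, edgeR adjusted p = 1.18e-11). Tnc, the injury-induced tenascin C, held 64.5, 92.01 and 22.8 CPM in the shRNA-labelled hearts, against 1.83, 1.54 and 2.36 CPM in the controls (4.97 ± 0.46, edgeR adjusted p = 1.5e-08), and the third shRNA-labelled heart was the lowest of its group in all 3 genes, most clearly in Tnc. Of 16 integrins 10 rose and 2 fell, with Itgb5 (1.39 ± 0.09) and Itgav (1.14 ± 0.06) among the rises. On that list of integrins and their ligands 19 of 34 genes rose and 9 fell, and with library totals 26 rose and 4 fell. Among the falls were Itgb6 (by 2.43, SE 0.28), Lamb3 (by 1.88, SE 0.16), Vtn, vitronectin (by 1.23, SE 0.08), and the laminin chain Lama5 (by 0.68, SE 0.10).

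In the TGF-beta family, whose growth factors act on fibroblasts, 22 of 35 genes rose and 4 fell (median 0.82), and with library totals 29 rose and 1 fell. Tgfb2 held 64.7, 61.4 and 74.9 CPM in the shRNA-labelled hearts, against 10.8, 9.36 and 11.02 CPM in the controls (2.69 ± 0.14, edgeR adjusted p = 6.24e-12), and Tgfb3 rose by 2.41 ± 0.12, whereas Tgfb1, the most studied ligand, gained 0.81. Gdf6, a bone morphogenetic protein, held 22.7, 19 and 19.9 CPM in the shRNA-labelled hearts, against 0.653, 0.807 and 0.930 CPM in the controls (4.69 ± 0.19, edgeR adjusted p = 4.51e-13). The ligands rose in 7 of 12 cases (median 0.64), the receptors in 4 of 10 (median 0.060) and the binding proteins and inhibitors in 11 of 13 (median 1.26), with Fstl1, a secreted follistatin-like protein, at 1135 ± 199 CPM in the shRNA-labelled hearts and 152 ± 19.6 CPM in the controls (SD, n = 3 each).

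In Wnt signalling 15 of 28 genes rose and 1 fell, with 9 of 13 antagonists and targets and 6 of 15 ligands and receptors higher. Sfrp1, a decoy for Wnt ligands, held 225, 238 and 227 CPM in the shRNA-labelled hearts, against 12.1, 12.7 and 16.8 CPM in the controls (4.06 ± 0.17, edgeR adjusted p = 5.82e-13), and Frzb, a second decoy, rose by 4.18 ± 0.22. Nkd2, an intracellular brake, rose by 3.79 ± 0.16 and the receptor Fzd1 by 1.98 ± 0.10. Wnt5a, a ligand of the noncanonical branch, was the single fall, with 5.49, 6.26 and 4.89 CPM in the shRNA-labelled hearts, against 17.6, 15.99 and 17.5 CPM in the controls (-1.62 ± 0.11, edgeR adjusted p = 1.34e-10). Targets of YAP and TEAD, the effectors of the Hippo pathway, rose in 12 of 22 cases and fell in 3 (median 0.53). The list was divided, because Ctgf, a connective tissue growth factor, held 1101, 852 and 1174 CPM in the shRNA-labelled hearts, against 50.8, 69.9 and 89.8 CPM in the controls (3.89 ± 0.22, edgeR adjusted p = 1.3e-11) and Myof and Axl rose by 2.14 ± 0.11 and 1.13 ± 0.08, while 7 targets were not called. None of the 3 falls was called lower with library totals.

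Ligands of heart and vessel growth moved in both directions (17 higher and 12 lower of 37, median 0.22), with 20 higher and 10 lower by library totals. Gdf15, a secreted stress cytokine, held 17.2, 15.6 and 12.9 CPM in the shRNA-labelled hearts, against 0.621, 0.666 and 0.429 CPM in the controls (4.72 ± 0.26, edgeR adjusted p = 1.2e-11). Hbegf, a ligand of the epidermal growth factor receptor, rose by 1.29 ± 0.09. Ligands known for the upkeep of vessels fell: Vegfa held 203, 221 and 227 CPM in the shRNA-labelled hearts, against 390.0, 391 and 439 CPM in the controls (-0.91 ± 0.06, edgeR adjusted p = 9.57e-11), Vegfb fell by 1.22 (SE 0.07), and Apln, apelin, by 2.45 (SE 0.18). Endothelial markers fell beside them, as given above. Fgf23, a hormone of phosphate balance, had 57 counts in the shRNA-labelled hearts and 0 in the controls, at least 13.2-fold higher (against a floor of 3 counts over the controls).

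Genes for the sensing of foreign and displaced nucleic acid rose in 28 of 35 cases and fell in 2 (median 1.10). Of the 17 sensors among them 15 rose and none fell (median 1.42). The falls were among the adaptors, kinases, nucleases and editors of the list. Zbp1, which binds left-handed nucleic acid, held 22.99, 24.4 and 22.8 CPM in the shRNA-labelled hearts, against 1.18, 1.26 and 2.29 CPM in the controls (3.90 ± 0.18, edgeR adjusted p = 1.64e-12). Irf7, the factor that amplifies the interferon response, held 119.6, 117 and 131 CPM in the shRNA-labelled hearts, against 21.00, 16.6 and 21.7 CPM in the controls (2.63 ± 0.12, edgeR adjusted p = 1.16e-12). The groups lay far apart in both genes, and the third control was the highest of its group. Ifi204 and Oas2 rose by 2.76 ± 0.11 and 1.91 ± 0.09. Mavs, the mitochondrial adaptor of the RNA sensors, fell instead, by 1.01 (SE 0.07). Macrophage markers rose beside this list by a median of 1.89, and their part in it was not tested.

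Promoters of these genes were searched for the core of the interferon-stimulated response element, GAAANNGAAA, on both strands, because it is the site through which interferon is known to act. Windows of RefSeq on GRCm38.p6 ran from 250 bases before to 50 after each start. The element was found in 8 of 27 sensing genes with a sequence (29.6%) and in 5 of 16 genes of antigen presentation (31.2%), and in 3.84% of 12435 tested genes. All 8 of these sensing genes were called higher, as were 28 of all 35 sensing genes tested. Of the antigen presentation genes with the element 4 were called higher and Erap1 was not called, and 18 of all 21 tested were higher. A match is a description of the sequence and not of binding. The 5 sites, all before the start, were chosen after the matches were seen and are shown as 30 bases 5′ to 3′ on the strand of the gene with the element in capitals.
Oas1a, chr5:120907520-120907549, minus strand: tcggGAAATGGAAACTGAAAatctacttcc
Oas3, chr5:120777715-120777744, minus strand: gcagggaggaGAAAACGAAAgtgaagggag
Myd88, chr9:119340039-119340068, minus strand: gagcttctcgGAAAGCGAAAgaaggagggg
B2m, chr2:122147538-122147567, plus strand: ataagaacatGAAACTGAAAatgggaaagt
Ctss, chr3:95526755-95526784, plus strand: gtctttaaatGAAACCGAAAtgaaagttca
In Oas1a, which makes a second messenger that activates an RNase, 2 overlapping matches lie within the window.

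Genes of antigen presentation rose in 18 of 21 cases and none fell (median 1.25). B2m, the light chain of class I molecules, held 694, 682 and 654 CPM in the shRNA-labelled hearts, against 210.1, 194 and 280.1 CPM in the controls (1.57 ± 0.11, edgeR adjusted p = 2.95e-10). H2-T23 and H2-D1, class I heavy chains, rose by 1.44 ± 0.08 and 1.16 ± 0.09, and near-identical members of that family may share reads. Ctss, the protease that trims the chaperone of class II molecules, held 210.0, 196 and 202 CPM in the shRNA-labelled hearts, against 22.01, 21.2 and 27.2 CPM in the controls (3.11 ± 0.10, edgeR adjusted p = 4.35e-14). All 8 class II genes rose, the classical chains H2-Aa, H2-Ab1 and H2-Eb1 by 1.38 to 1.40.

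Complement rose in 24 of 27 genes (median 2.03). C1qa, C1qb and C1qc, the 3 chains of the first component, rose by 1.96 ± 0.06, 2.03 ± 0.07 and 1.80 ± 0.07, at nearly the same size. Serping1, the inhibitor of that component, held 418, 398 and 491 CPM in the shRNA-labelled hearts, against 93.2, 99.8 and 118 CPM in the controls (2.07 ± 0.10, edgeR adjusted p = 3.23e-12). Cfb, a protease of the alternative pathway, had 262 counts in the shRNA-labelled hearts and 2 in the controls, a ratio of 91.2 (25.00 to 757). The 2 falls were those of Cd59a, which blocks the membrane attack complex (by 0.73, SE 0.07), and Cr1l, whose fall of 0.28 did not hold with library totals.

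Chemokines and their receptors rose in 24 of 32 cases. Ccl8, a ligand of monocytes and T cells, held 9.25, 9.06 and 5.37 CPM in the shRNA-labelled hearts, against 0.131, 0.140 and 0.250 CPM in the controls (5.49 ± 0.30, edgeR adjusted p = 9.51e-12). Cx3cl1 and Cxcl16, ligands that also exist bound to the membrane, rose by 2.55 ± 0.17 and 2.23 ± 0.12. The scavenging receptor Ackr4 rose by 2.37 ± 0.15. Cxcl12, a homeostatic chemokine of stromal cells, fell by 0.79 (SE 0.10), and the eosinophil ligands Ccl11 and Ccl24 by 2.39 (SE 0.38) and 1.94 (SE 0.34) at 2.35 CPM or less in every heart.

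Interleukins, the TNF family and their receptors rose in 30 of 37 cases. Il6 had 364 counts in the shRNA-labelled hearts and 2 in the controls, a ratio of 127 (34.8 to 1050). Il1rn, the natural blocker of the interleukin 1 receptor, held 5.72, 5.84 and 5.45 CPM in the shRNA-labelled hearts, against 0.131, 0.0351 and 0.0716 CPM in the controls (6.08 ± 0.38, edgeR adjusted p = 4.66e-11). Both were close to absent in the controls and low in CPM in the shRNA-labelled hearts. Osmr, the receptor of oncostatin M, rose by 1.51 ± 0.08, Il4ra by 1.68 ± 0.09 and Il17ra by 1.88 ± 0.11, while Il15, which sustains natural killer cells, fell by 1.48 (SE 0.09).

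Genes of cell death rose in 26 of 33 cases and fell in 3 (median 0.76), and 1 fell with library totals. Pmaip1 and Bbc3, which encode the death-promoting BCL2 relatives Noxa and Puma, both targets of p53, rose by 3.62 ± 0.27 and 1.48 ± 0.12. Pmaip1 held 4.17, 4.37 and 4.28 CPM in the shRNA-labelled hearts, against 0.229, 0.491 and 0.322 CPM in the controls. The inflammatory caspases Casp4 and Casp12 rose by 1.79 ± 0.16 and 1.51 ± 0.11. Bcl2l11 (Bim), another member that promotes death, fell by 0.78 (SE 0.15). Cdkn1a, the cell cycle inhibitor p21, held 148, 137 and 166 CPM in the shRNA-labelled hearts, against 9.01, 11.5 and 24.8 CPM in the controls (3.32 ± 0.23, edgeR adjusted p = 2.11e-10), and Phlda3, a p53 target that restrains AKT, held 78.6, 67.6 and 68.6 CPM in the shRNA-labelled hearts, against 9.73, 11.6 and 11.1 CPM in the controls (2.73 ± 0.09, edgeR adjusted p = 5.14e-14). The third control was the highest of its group in Cdkn1a and still lay far below the lowest shRNA-labelled heart. On the DNA damage response list 13 of 27 genes rose and 7 fell (median 0.25), but with library totals 20 rose and 2 fell (median 0.68). Parp1 fell by 0.78 (SE 0.06) and Ccng1, a cyclin that is itself a p53 target, by 0.84 (SE 0.07). Genes linked to senescence rose in 13 of 15 cases, and Igfbp7 held 796, 671 and 720.5 CPM in the shRNA-labelled hearts, against 142, 156 and 147 CPM in the controls (2.30 ± 0.09, edgeR adjusted p = 3.02e-13). Lmnb1, whose loss is a mark of senescent cells, gained 0.36.

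Of 33 redox genes 21 rose and 8 fell (median 0.52), and with library totals 25 rose and 3 fell. Hmox1, haem oxygenase 1, held 56.8, 49.4 and 62.4 CPM in the shRNA-labelled hearts, against 8.79, 7.47 and 7.16 CPM in the controls (2.85 ± 0.10, edgeR adjusted p = 1.5e-13). Cybb and Ncf1, parts of the phagocyte NADPH oxidase, rose by 1.82 ± 0.10 and 1.84 ± 0.10. Sod2, the superoxide dismutase of mitochondria, fell, with 228, 248 and 196 CPM in the shRNA-labelled hearts, against 662, 642 and 657 CPM in the controls (-1.54 ± 0.07, edgeR adjusted p = 1.7e-12), and Gsta4, which detoxifies lipid peroxides, fell by 1.40 (SE 0.07). Iron genes were split 7 to 7 of 20, and 12 rose and 4 fell with library totals. Ftl1, ferritin light chain, rose by 1.42 ± 0.07, and Slc40a1, the iron exporter ferroportin, fell by 1.28 (SE 0.08). Hamp, the hormone that degrades that exporter, had 88 counts in the shRNA-labelled hearts and 0 in the controls, at least 20.4-fold higher. Lysosomal genes rose in 19 of 25 cases, among them Ctss and Ctsz (1.91 ± 0.07), and macrophage markers rose beside them.

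Serine synthesis and 1-carbon metabolism divided within the pathway (7 higher and 4 lower of 14). Psat1, an aminotransferase of serine synthesis, held 20.5, 18.8 and 21.7 CPM in the shRNA-labelled hearts, against 2.94, 3.89 and 4.40 CPM in the controls (2.44 ± 0.13, edgeR adjusted p = 7.43e-12). Mthfd2, the mitochondrial folate enzyme of growing tissue, held 14.7, 13.1 and 14.6 CPM in the shRNA-labelled hearts, against 2.87, 2.77 and 4.90 CPM in the controls (2.01 ± 0.15, edgeR adjusted p = 6.12e-10). Shmt2 and Shmt1, which pass the carbon from serine to folate, fell by 0.56 (SE 0.05) and 1.12 (SE 0.16). The core of the amino acid response element, TGATGNAA, to which ATF4 and C/EBP factors are known to bind, was found in the promoters of 2 of 13 of these genes (15.4%) and of 2.82% of tested genes. The 2 are shown in the form used above.
Asns, chr6:7693214-7693243, minus strand: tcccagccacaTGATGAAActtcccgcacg
Pycr1, chr11:120643833-120643862, minus strand: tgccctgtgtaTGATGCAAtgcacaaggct
Asns, asparagine synthetase, gained 1.54 and Pycr1, which makes proline, 2.32 ± 0.20. The estrogen-related receptor element TCAAGGTCA was found in 1 of 24 promoters of pyruvate and citric acid cycle genes (4.17%), that of Sdhd, in none of 17 of branched-chain breakdown, and in 0.314% of tested genes.

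On the list of intercalated disc proteins, which couple cardiomyocytes, 11 of 19 genes fell and 3 rose (median -0.24), but with library totals 2 fell and 11 rose. The 2 falls that held under both scalings were the desmosomal cadherins. Dsg2 held 40.1, 45.1 and 43.1 CPM in the shRNA-labelled hearts, against 118, 106 and 90.1 CPM in the controls (-1.29 ± 0.09, edgeR adjusted p = 1.77e-10), and Dsc2 fell by 1.40 (SE 0.09). Xirp2, an actin-binding protein of the disc, rose by 1.19 ± 0.13. In the dystrophin complex and costamere Sgca, alpha-sarcoglycan, fell by 1.31 (SE 0.06), and Synm, an intermediate filament protein that binds desmin, held 43.9, 41.4 and 51.4 CPM in the shRNA-labelled hearts, against 9.41, 10.8 and 11.8 CPM in the controls (2.10 ± 0.10, edgeR adjusted p = 2.27e-12). Z-disc genes divided into 9 higher and 7 lower. Fhl1, a stretch sensor bound to titin, held 621, 550.2 and 628 CPM in the shRNA-labelled hearts, against 120.2, 129 and 126 CPM in the controls (2.26 ± 0.09, edgeR adjusted p = 3.85e-13). Its relative Fhl2 moved the other way, with 651, 681 and 774 CPM in the shRNA-labelled hearts, against 1742, 1600 and 1339 CPM in the controls (-1.15 ± 0.10, edgeR adjusted p = 3.45e-09). Ldb3, which anchors proteins at the Z-disc, fell by 0.82 (SE 0.06). Tubulins and other cytoskeletal genes rose in 19 of 27 cases, Tubb3, a tubulin of neurons, by 3.65 ± 0.23 and the intermediate filament gene Vim by 1.85 ± 0.07, while Tuba4a fell by 1.75 (SE 0.13).

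Genes of the lamina and its partners were called in both directions (5 higher and 9 lower of 24, median -0.05). Of all genes tested 33.3% were higher and 29.6% lower (median 0.05). With library totals 15 of the 24 were higher and 2 lower. Tmem43, an inner nuclear membrane protein that binds lamins, held 74.4, 70.4 and 77.97 CPM in the shRNA-labelled hearts, against 28.6, 29.3 and 31.8 CPM in the controls (1.31 ± 0.07, edgeR adjusted p = 7.44e-12). Tmem201 (Samp1), another protein of that membrane, held 47.8, 52.8 and 49.96 CPM in the shRNA-labelled hearts, against 134, 131 and 123 CPM in the controls (-1.36 ± 0.07, edgeR adjusted p = 2.05e-12). These 2 kept their directions under both scalings. Lbr, the lamin B receptor, and Sun1, which bridges lamins and the cytoskeleton, fell by 0.50 (SE 0.06) and 0.45 (SE 0.06), and neither was called lower with totals. Lmnb2 gained 0.24 (SE 0.10), and Emd, emerin, was not called.

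Retinoid and thyroid genes held some of the steepest changes in both directions. Aldh1a2, which makes retinoic acid, held 39.4, 46.4 and 27.1 CPM in the shRNA-labelled hearts, against 5.29, 5.54 and 10.2 CPM in the controls (2.43 ± 0.23, edgeR adjusted p = 1.93e-08). Cyp26b1, which degrades retinoic acid, held 1.70, 2.50 and 2.88 CPM in the shRNA-labelled hearts, against 89.8, 30.8 and 30.3 CPM in the controls (-4.43 ± 0.80, edgeR adjusted p = 7.91e-05), and Lrat, which stores retinol as ester, held 0.352, 0.453 and 0.0764 CPM in the shRNA-labelled hearts, against 6.43, 6.73 and 2.54 CPM in the controls (-4.13 ± 0.42, edgeR adjusted p = 5.24e-08). The first control stood well above the other 2 in Cyp26b1, and the groups lay apart nonetheless. All 4 genes tested under thyroid hormone on this list rose, a part that does not hold its receptors Thra and Thrb. Dio2, which activates the hormone, held 64.6, 50.7 and 58.8 CPM in the shRNA-labelled hearts, against 1.21, 1.12 and 2.58 CPM in the controls (5.16 ± 0.30, edgeR adjusted p = 1.83e-11), and Dio3, which inactivates it, rose as well, by 4.22 ± 0.51 from near the floor. The receptors Thra and Thrb fell by 0.74 and 0.92. Imprinted genes, many of which are fetal growth regulators, rose in 10 of 22 cases and fell in 3. Meg3, a long noncoding RNA of the Dlk1 locus, rose by 1.27 ± 0.10, with Rian and Mirg of the same locus gaining 1.20 and 1.18. Cdkn1c, a cell cycle inhibitor, fell by 1.31 (SE 0.12), and Igf2, the fetal insulin-like growth factor, fell at very low levels, with 0.145, 0.240 and 0.586 CPM in the shRNA-labelled hearts, against 0.849, 0.666 and 1.18 CPM in the controls (-1.49 ± 0.45, edgeR adjusted p = 0.00741).

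By the family annotation deposited with the counts, 1042 transcription factor genes were tested, of which 294 rose and 284 fell, with a median of -0.003. Over all genes tested 33.3% rose and 29.6% fell, and the counts of each family below stand beside these shares. The bZIP family, which holds the AP-1, ATF and C/EBP factors, had 28 of 45 genes higher and 3 lower (median 0.68). The T-box family had 5 of 11 higher and 3 lower, and the IRF family 4 of 9 higher and none lower. The retinoid X receptor-like family had 5 of 8 lower and none higher, and the thyroid hormone receptor-like family 8 of 18 lower and 4 higher. The C2H2 zinc fingers, the largest family, had 98 of 469 higher and 126 lower.

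Outside the lists, the largest rises among protein-coding genes were led by Chil1, a chitinase-like protein of injured tissue, with 1654 counts in the shRNA-labelled hearts and 1 in the controls, a ratio of 1150 (206 to 45500). It held 9.04, 5.54 and 25.7 CPM in the shRNA-labelled hearts, against 0, 0 and 0.0358 CPM in the controls, and was, of called protein-coding genes at 5 CPM or more, the one with the widest spread among the shRNA-labelled hearts. Sprr1a, an epithelial protein induced in stressed cardiomyocytes, held 41.4, 28.1 and 32.7 CPM in the shRNA-labelled hearts, against 0, 0.0351 and 0.107 CPM in the controls (9.43 ± 0.54, edgeR adjusted p = 1.8e-11). Others of the 10 were 1500015O10Rik, Serpinb9b, Atp6v0a4, Serpinb1c, C1qtnf3, Cxcr6 and Mylk2, with changes between 5.50 and 7.67. Cxcr6 encodes a chemokine receptor of T cells that binds the product of Cxcl16, and Mylk2 the myosin light chain kinase of skeletal muscle. Genes at 3 counts or fewer over the controls included Tnmd, tenomodulin of tendon, with 340 counts in the shRNA-labelled hearts and 0 in the controls, at least 78.9-fold higher, and Muc15, a membrane mucin, with 439 counts in the shRNA-labelled hearts and 0 in the controls, at least 102-fold higher. Syndig1 had 323 counts in the shRNA-labelled hearts and 1 in the controls, a ratio of 225 (40.1 to 8910), and Tdrd9 had 308 counts in the shRNA-labelled hearts and 2 in the controls, a ratio of 107 (29.4 to 890.0).

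The 10 largest falls outside the lists included 5 ion channel genes. Clcn1, the chloride channel of skeletal muscle, held 0.104, 0.373 and 0.153 CPM in the shRNA-labelled hearts, against 18.03, 12.6 and 12.3 CPM in the controls (-6.13 ± 0.36, edgeR adjusted p = 2.49e-11). Ces1d, a carboxylesterase that hydrolyses stored lipid, held 5.37, 7.89 and 1.43 CPM in the shRNA-labelled hearts, against 166, 148 and 116 CPM in the controls (-4.87 ± 0.33, edgeR adjusted p = 1.48e-10). Mylk4, a relative of the myosin light chain kinases, held 12.5, 21.5 and 11.4 CPM in the shRNA-labelled hearts, against 436, 468 and 241 CPM in the controls (-4.66 ± 0.25, edgeR adjusted p = 8.86e-12). In each the controls stood far above every shRNA-labelled heart, and the third shRNA-labelled heart was lowest in Ces1d and Mylk4. The next 4 encode channel subunits: Kcnv2 (-4.49 ± 0.25), Scn4b (-4.44 ± 0.35), Cacna1s (-3.75 ± 0.19) and Cngb3 (-3.66 ± 0.22). Ubxn10, Lgi1 and Smco1 completed the 10, with falls between 3.52 and 3.63.

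Among long noncoding genes the steepest rises were partly next to genes that rose. Gm13054, on the strand opposite Nppa and overlapping it, held 208, 183 and 290.1 CPM in the shRNA-labelled hearts, against 2.84, 3.68 and 5.37 CPM in the controls (5.85 ± 0.43, edgeR adjusted p = 4.55e-10), beside the 6.12 of Nppa. D030025P21Rik, which overlaps Ltbp2 on the other strand, had 237 counts in the shRNA-labelled hearts and 0 in the controls, at least 55.00-fold higher. Without knowing whether counting used the strand, reads of these genes and of their partners cannot be told apart. A rise next to a called gene was also that of 4833412C05Rik, which lies 757 bases from Gm7583 on the same strand and held 7.63, 6.80 and 9.88 CPM in the shRNA-labelled hearts, against 0, 0.0351 and 0.250 CPM in the controls (6.41 ± 0.49, edgeR adjusted p = 8.56e-10). The other rises were those of Gm13749, with 215 counts in the shRNA-labelled hearts and 1 in the controls, a ratio of 150.0 (26.6 to 5940), Gm36377 with 168 counts in the shRNA-labelled hearts and 2 in the controls, a ratio of 58.5 (15.9 to 487), and AC105304.1, which rose by 5.85 ± 0.45. The steepest falls were Gm31600, with 0 counts in the shRNA-labelled hearts and 104 in the controls, at least 49.8-fold lower, 2310015K22Rik (0, 0.133 and 0 CPM in the shRNA-labelled hearts, against 1.34, 2.14 and 1.65 CPM in the controls), Chaer1, a noncoding regulator of hypertrophy (-3.83 ± 0.30, edgeR adjusted p = 1.11e-09), Gm10635 (-3.73 ± 0.40), 2310039L15Rik (-3.53 ± 0.22) and Uckl1os, which overlaps Uckl1 and Zfp512b.

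The 3 shRNA-labelled hearts were alike in most respects. Along 4192 genes called at least 2-fold in batch LA, they lay at a median of 1.20, 1.13 and 1.22 in the direction of change there, and the controls of batch LC at -0.033, -0.0024 and 0.034. Between any 2 shRNA-labelled hearts the log2 difference per gene had an SD of 0.197 to 0.273, and between any 2 controls 0.209 to 0.308. Among the controls both pairs with the third heart were the wider (0.308 and 0.298), and by its label this heart is numbered next to the third control of batch LA and apart from the other 2. Without it 10876 genes were called. Within that range the third shRNA-labelled heart stood apart in some groups. It was the lowest of the 3 in 40.5% of all called genes, but in 17 of 19 genes of branched-chain breakdown, 22 of 28 of the citric acid cycle, 21 of 30 collagens and 23 of 33 fibroblast state genes. It was the highest of the 3 in 33.9% of all called genes, but in 14 of 17 Z-disc genes, 15 of 22 YAP-TEAD targets and 7 of 8 natriuretic genes. These counts by list take in every gene tested, called or not, unlike the shares of called genes beside them. The second heart was the lowest of the 3 in 38 of 42 ribosomal protein genes and the first the highest in 39. Among the genes with the widest spread, Myh7 was highest and Tnc lowest in the third heart, and Prc1, a protein of the dividing cell, held 6.95, 10.8 and 2.88 CPM in the shRNA-labelled hearts, against 2.06, 2.77 and 3.15 CPM in the controls, so that the third heart was level with the controls. Scd4, a fatty acid desaturase, and the haemoglobin gene Hbb-bs, a sign of blood in the tissue, were also called (-1.34 ± 0.41 and -1.15 ± 0.47), and neither was with library totals.

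**Figure D4:**
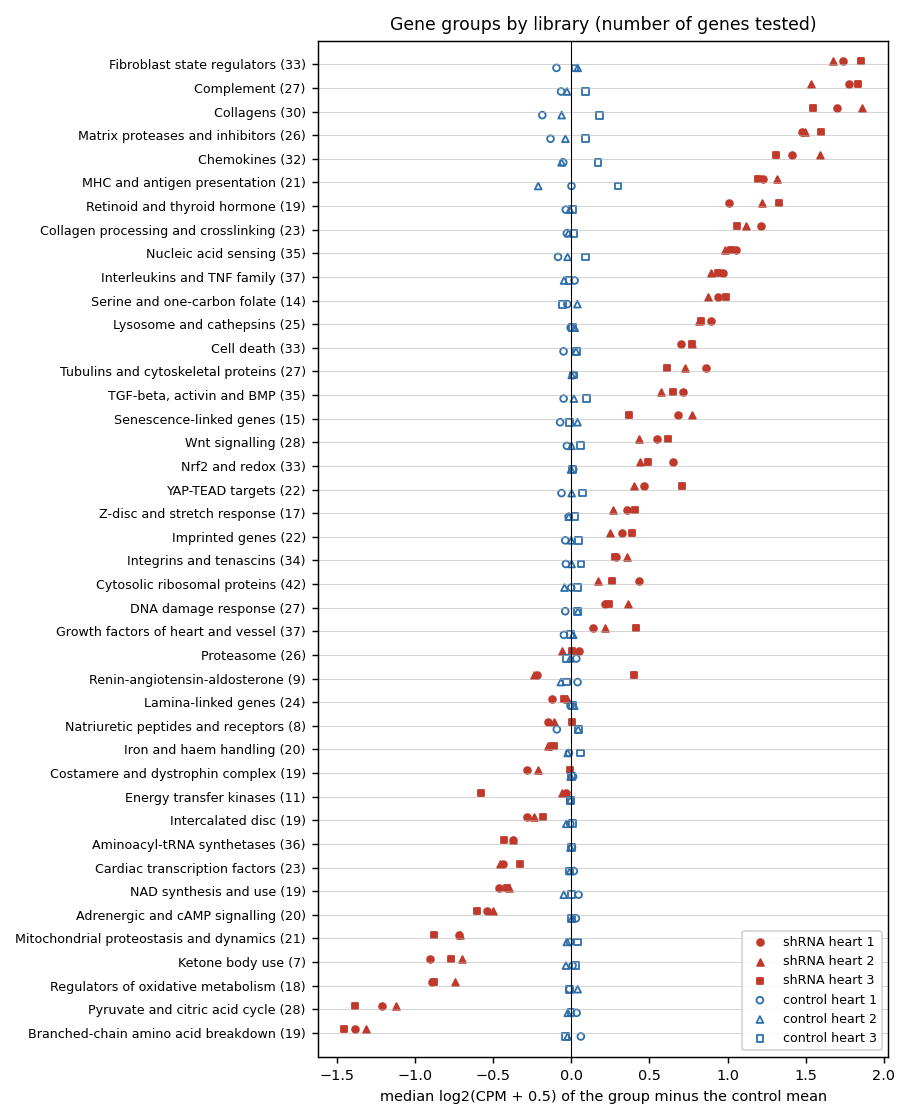
Median of each group of genes in each heart, as log2(CPM + 0.5) minus the mean of the controls, filled red for shRNA-labelled and open blue for control hearts, with the number of genes tested in brackets. Fibroblast state, complement and collagens lie at 1.53 to 1.86 in the shRNA-labelled hearts, branched-chain breakdown and the citric acid cycle at -1.12 to -1.45, and the proteasome list overlaps the controls.

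The same contrast in batch LA, which shares no library with batch LC, gave 5784 genes higher and 5191 lower. Of the genes called in batch LC 9687 were called in the same direction in batch LA, 6 in the opposite one and 1554 not at all, and 98.7% had the same sign. Whether the effect itself differed was tested as a difference of the 2 effects, and 0.00559% of genes were called, a single gene. At an unadjusted p under 0.05 stood 1142 genes (6.39%), and DESeq2 called 8. Without the third control of batch LC 47 genes were called, and with no filter for low counts 247. None was called with only the 4 groups in the fit, without the second shRNA-labelled heart of batch LA or without its second control. The difference had a 95% interval inside 2-fold for 69.2% of genes. For the rest a difference of that size between the batches was not excluded by these libraries.

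**Figure D5:**
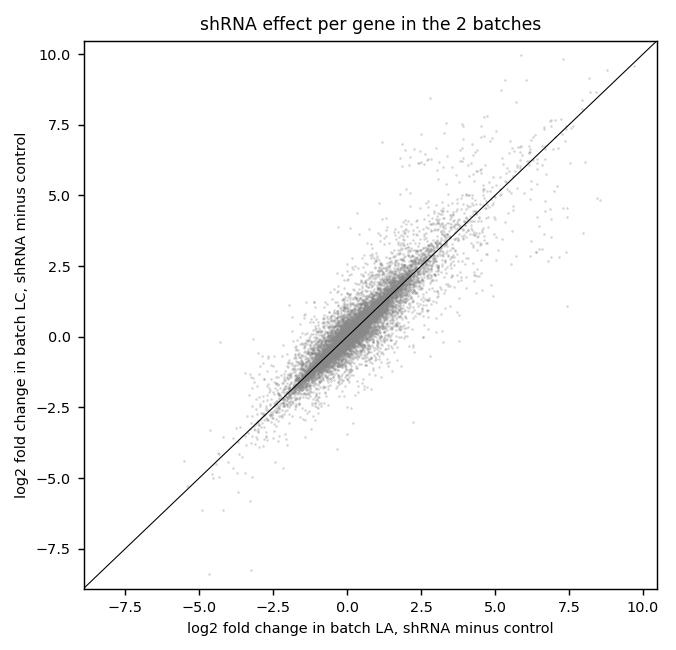
Log2 fold change of each tested gene, shRNA-labelled minus control, in batch LC (vertical) against batch LA (horizontal), with the line of equal change. Of the genes called in batch LC 98.7% have the same sign in batch LA.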

How the data were processed

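RNA of mouse heart apex was sequenced in 18 libraries, 3 in each of 6 groups, and the 6 libraries of 2 groups of batch LC were compared, with the 6 of the same groups in batch LA beside them. Counts of reads per gene were used as deposited by the authors for 54532 genes. FPKM values were used as deposited by the authors as well, and in each library they were proportional to those counts divided by gene length, within a relative departure of 2.3e-08. The submitters' processing notes name HISAT2 2.0.5, featureCounts 1.5.0-p3, StringTie 1.3.3b, DESeq2 1.20.0 and mm10, with no role stated. Whether counting used the strand, and how reads shared by near-identical genes were assigned, is stated by no source used here. Coordinates are those of the deposited table.

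Counts were tested with edgeR 4.0.16 in R 4.3.3 (TMM factors, quasi-likelihood F test, Benjamini-Hochberg adjustment over 17876 genes that passed its filter for low counts, called at an adjusted p under 0.05). The fit took in all 18 libraries as 6 groups, with 12 residual degrees of freedom and a common biological coefficient of variation of 9.13%. The standard error of a log2 fold change is its size divided by the square root of F, and intervals of 95% rest on it. The script was checked on simulated counts. Isoform pairs were compared as log2 ratios of FPKM with 0.1 added, by a two-sided exact permutation test of the 3 against 3 libraries. Where a gene had 3 counts or fewer over the 3 libraries of a group, the ratio is given with an exact counting interval, or against a floor of 3 counts over the group where it had 0. Such intervals cover counting error only, since reads without molecular identifiers are not independent molecules. No library pair had counts that agreed within sampling noise (chi-square per degree of freedom 6.07 to 41.6). Alternatives used DESeq2 1.42.0 and limma 3.58.1 (log2 of FPKM with 1 or 0.1 added, genes at 1 FPKM or more in 3 libraries).

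The groups, the 42 gene lists (1028 entries, 1001 tested, 19 genes on more than 1 list), the markers, the pairs and the tests were chosen with earlier results of these data known. Named genes are Lmna, up to 4 called members of each list per direction by smallest p and members that show a role not otherwise named, both genes of each pair, and the 10 largest gains and losses in mean CPM. Named too are the 10 most abundant genes of either group, the 10 largest rises and falls of protein-coding genes on no list (at least 5 CPM in the higher group, no overlap), the 6 largest rises and falls of noncoding genes (at least 1 CPM) and the 6 widest spreads among the shRNA-labelled hearts. The rule also takes the 8 highest genes near 0 in the controls and the genes whose effect differed between batches. Some genes that this rule takes are not reported here. Promoter windows came from RefSeq (GRCm38.p6, 27025 genes, of which 12435 matched a tested gene).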

Additional observations from a re-analysis of the deposited data

How the results depend on the processing

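The count of 11247 genes called between shRNA-labelled and control hearts ranged from 8985 to 12843 over 10 other settings and from 10492 to 10876 with 1 library of the comparison left out (5460 to 5782 higher, 4936 to 5197 lower). Library totals in place of TMM factors gave 10427 higher and 2416 lower, and 8364 of the 11247 genes kept their call and direction. That setting alone turned the sign of 23 of 363 named genes, to 0.0022 (Actc1), 0.20 (Acvr1b), 0.16 (Adamts9), 0.088 (Arhgef17), 0.14 (Cr1l), 0.097 (Dhrs3), 0.11 (Dock5), 0.016 (Enpep), 0.21 (Fabp5), 0.067 (Fadd), 0.093 (Jup), 0.11 (Ltbp1), 0.10 (Npr2), 0.020 (P3h4), 0.21 (P4ha2), 0.27 (Plod1), 0.26 (Prrx1), 0.18 (Psma1), 0.023 (Psmb2), 0.060 (Rnaseh2a), 0.15 (Tead1), 0.094 (Tfeb) and 0.15 (Xrcc1). Cox8a ranged from -0.0083 to 0.066 with a library left out, the first shRNA-labelled one for the lower value. The single gene that differed between batches became 8 with DESeq2 (3 higher, 5 lower in batch LC), 247 with no filter for low counts (160 and 87), 4 with limma and no filter on FPKM (3 of them lower), and 0 with only the groups compared in the fit (1041 at an unadjusted p under 0.05). With a library left out it ranged from 0 to 47 (0 to 25 higher, 0 to 22 lower), the 47 being without the third control of batch LC, and the 0 without the second shRNA-labelled or control library of batch LA. The median shift of the isoform pairs stayed between -1.94 and -1.83 with a library left out, and all 20 pairs kept separate groups. Same-numbered libraries did not deviate together (correlations of -0.018, -0.050 and -0.016), so the numbers do not pair them, and a replicate block gave 11065 calls between the groups and 0 between batches (1080 at an unadjusted p under 0.05). The cause of these changes was not tested. At these depths 3 counts are worth 0.0622 to 0.107 CPM, and folds of genes near 0 in a group are bounds or carry wide counting intervals.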
